A study of Mus musculus with 21 samples.

Results

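Liver of control mice 6 days after removal of part of the organ was compared with liver of control mice at the time of removal. The comparison holds 6 of the 21 liver samples of the series, 3 from day 6 and 3 from day 0, chosen by their labelled group and day, and it was read across 7320 of the 12393 genes on the array. The control mice were 9-month-old males of strain FVB129P2/FVBNJ, and every mouse had a 30% partial hepatectomy, a surgical resection that leaves most of the liver in place. The lobe removed at surgery is the day 0 sample, so day 0 is liver before any regrowth, and no animals with a sham operation are among the groups used here. By the numbers in the sample titles, the day 0 lobes came from mice 263, 265 and 303 and the day 6 livers from mice 303, 392 and 393, so 1 number is shared. The submitters' design text instead describes the day 0 lobes as taken from animals killed at the later days, and whether other control livers form pairs cannot be told from the labels. The series also holds 3 control livers of day 2 and livers of Mdr2-/- mice, called KO in the labels, which were 9-month-old males of strain FVB129P2 with the same resection (6 at day 0 and 3 each at days 2 and 6). Mdr2 is the older name of Abcb4, which carries phosphatidylcholine into bile, and its loss is known to give chronic bile duct inflammation and, with age, liver tumours. Strain and genotype differ together between KO and control mice and cannot be told apart.

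After a resection, the remaining hepatocytes leave their resting state, copy their DNA, divide and restore the lost mass while they go on making blood proteins and metabolising nutrients. Cytokines from resident macrophages (Kupffer cells) switch on acute phase proteins early, growth factors can then carry hepatocytes through the cell cycle, and matrix and vessels are rebuilt later. DNA replication genes are classic targets of the E2F transcription factors. Genes of mitosis share CHR and CCAAT elements in their promoters, and genes induced by interferon share the interferon-stimulated response element, ISRE.

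Values are log2 signals after GCRMA, a method that corrects Affymetrix probe signals for background by their base composition, and a difference of 1 is a 2-fold change in signal. Each gene was read from 1 probe set, chosen for its highest mean signal. Levels of different genes cannot be set against each other on this scale. For a gene, values are given in the order of mice 263, 265 and 303 for day 0 and of mice 303, 392 and 393 for day 6. Errors of differences are standard errors from limma with n = 3 livers a group. The spread behind these errors and behind the adjusted p is pooled over all groups of the series. The errors thus do not show the scatter of the compared livers alone, which can be wider or narrower. A gene was called when its Benjamini-Hochberg adjusted p in limma, over all 7320 genes, was under 0.05, and "rose" and "fell" are used for called genes alone. Where all 3 arrays of a group lie at or under log2 4, the level below which few genes were kept, the gene has only weak signal there and the size of its difference is uncertain. Where a gene lost its call when an array was left out, the highest adjusted p is given with the array behind it, and other arrays could end the same call. A gene with weak signal in every lobe was tested only if some other livers were above log2 4, so counts, medians and means over the tested genes of a list are partly set by that filter. In whole liver, fewer cells of a type and less RNA per cell cannot be told apart.

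The promoters below are shown because leading genes of the 3 lists with the most called genes, DNA replication, mitosis and the interferon response, carry the element their list is known for. They were chosen after the values were seen. Each holds the 250 bases before the gene's RefSeq start site in GRCm38.p6, 5′ to 3′ on the gene's own strand, and capitals mark the matches, on either strand, to the element named for that group. Mcm5 (chr8:75109259-75109508, plus strand) and Mcm6 (chr1:128359706-128359955, minus strand) encode subunits of the replicative helicase, and their capitals mark the E2F letters, which are TTCCCGC or its variants with other inner bases, namely TTGGCGC and the variant TTCGCGC and the variant TTGCCGC, and matches can overlap.
Mcm5: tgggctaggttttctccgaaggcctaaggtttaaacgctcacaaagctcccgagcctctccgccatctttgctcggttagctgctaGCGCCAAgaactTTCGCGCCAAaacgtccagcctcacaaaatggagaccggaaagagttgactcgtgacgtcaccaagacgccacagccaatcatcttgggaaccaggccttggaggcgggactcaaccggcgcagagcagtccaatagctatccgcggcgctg
Mcm6: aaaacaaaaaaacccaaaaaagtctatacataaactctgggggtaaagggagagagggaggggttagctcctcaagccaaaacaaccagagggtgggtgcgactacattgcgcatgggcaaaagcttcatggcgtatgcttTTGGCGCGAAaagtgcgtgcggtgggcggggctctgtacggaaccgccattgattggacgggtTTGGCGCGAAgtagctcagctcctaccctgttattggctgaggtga
Cdc20 (chr4:118437344-118437593, minus strand) encodes an activator of the anaphase-promoting complex and Cdk1 (chr10:69352913-69353162, minus strand) the kinase that starts mitosis. Their capitals mark the CHR letters TTTGAA and the letters CCAAT, which do not overlap each other here.
Cdc20: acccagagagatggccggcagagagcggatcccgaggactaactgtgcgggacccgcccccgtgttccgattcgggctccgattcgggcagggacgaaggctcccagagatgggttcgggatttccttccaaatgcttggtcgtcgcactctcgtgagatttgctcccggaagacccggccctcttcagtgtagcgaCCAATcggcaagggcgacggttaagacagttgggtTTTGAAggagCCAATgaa
Cdk1: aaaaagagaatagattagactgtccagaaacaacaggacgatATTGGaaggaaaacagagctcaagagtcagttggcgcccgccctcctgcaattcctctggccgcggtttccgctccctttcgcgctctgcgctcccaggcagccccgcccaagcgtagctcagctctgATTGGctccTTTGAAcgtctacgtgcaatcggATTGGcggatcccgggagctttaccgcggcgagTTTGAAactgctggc
Oas1a (chr5:120907526-120907775, minus strand) encodes a sensor of double-stranded RNA and Ifit1 (chr19:34640639-34640888, plus strand) a protein that blocks translation of viral RNA. Their capitals mark the ISRE letters, a pair of GAAA runs with any 2 bases between them, and 2 matches overlap in Oas1a.
Oas1a: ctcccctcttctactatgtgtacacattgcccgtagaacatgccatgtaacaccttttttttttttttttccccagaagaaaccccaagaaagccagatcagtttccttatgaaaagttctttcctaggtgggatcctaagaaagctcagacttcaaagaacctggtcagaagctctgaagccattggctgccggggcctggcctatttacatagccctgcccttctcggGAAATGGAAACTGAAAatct
Ifit1: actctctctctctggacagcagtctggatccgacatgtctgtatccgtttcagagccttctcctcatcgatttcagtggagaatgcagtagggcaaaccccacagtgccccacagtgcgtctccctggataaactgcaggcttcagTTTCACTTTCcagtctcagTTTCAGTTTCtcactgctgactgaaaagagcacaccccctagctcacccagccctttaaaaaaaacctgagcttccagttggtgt
RefSeq held a promoter for 6017 of the 7320 genes tested. The E2F letters stood in 16.1% of these and in 10 of the 26 promoters of tested replication genes (38.5%). CHR and CCAAT letters stood together in 4.82% of all promoters and in 12 of 19 promoters of tested mitosis genes (63.2%). The ISRE letters stood in 3.26% of all promoters and in 14 of 32 promoters of tested interferon-stimulated genes (43.8%). A match describes the sequence and shows neither binding nor use of the site.

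The arrays had medians between 3.8 and 4.1. A technical check sets the probes at the 3′ end of Gapdh against those at its 5′ end, where a larger gap goes with degraded or poorly copied RNA. The gap lay between −0.1 and 0.17 in the day 0 lobes, at −0.03 and 0.08 in day 6 mice 392 and 393 and at 0.94 in day 6 mouse 303, and it was above 1 in 3 other arrays of the series, of which 2 are control day 2 livers (1.58 in mouse 263 and 9.5 in mouse 265). The median SD of a gene was 0.214 over the day 0 lobes and 0.3 over the day 6 livers. The hepatocyte marker Alb, albumin, the main blood protein made by hepatocytes, was high in all 6 livers, at 15.07, 15.03 and 14.93 at day 0 and 14.74, 15.08 and 15.12 at day 6. Abcb4 measured 9.51 to 10.18 in the control lobes of day 0 and 10.08 to 10.2 in the control livers of day 6, against 7.25 to 8.96 in the KO livers of both days.

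Of the 7320 genes, 209 were called between day 6 and day 0 (2.86%). Of these, 155 rose (2.12%) and 54 fell (0.738%), with a median difference of 1.83 among the higher and −1.3 among the lower genes, while the median over all genes was 0.003. At least a 2-fold change was measured for 144 of the higher and 39 of the lower genes. The 3 livers of day 6 did not overlap with the 3 lobes of day 0 in 1712 genes (23.4%), which takes in 208 of the 209 called genes. The number called depended on which animals entered, at 54 without day 0 mouse 265, 55 without day 6 mouse 392, 93 without day 0 mouse 303 and 109 without day 0 mouse 263. With fewer arrays in the model, 19 genes were called with the 6 compared arrays alone and 22 with the control arrays alone. With mouse as a fixed block, where the comparison rests on the 2 samples of mouse 303 alone with 5 residual degrees of freedom, limma called 0 genes (677 at an unadjusted p under 0.05), and with mouse as a random block it called 241. 41 genes (37 higher and 4 lower) were called whichever of the 6 arrays was left out, each time in the model of all groups. Centring each array on its own median moved the median over all genes to −0.18, and 197 genes were then called, 109 higher and 88 lower.

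**Figure D1:**
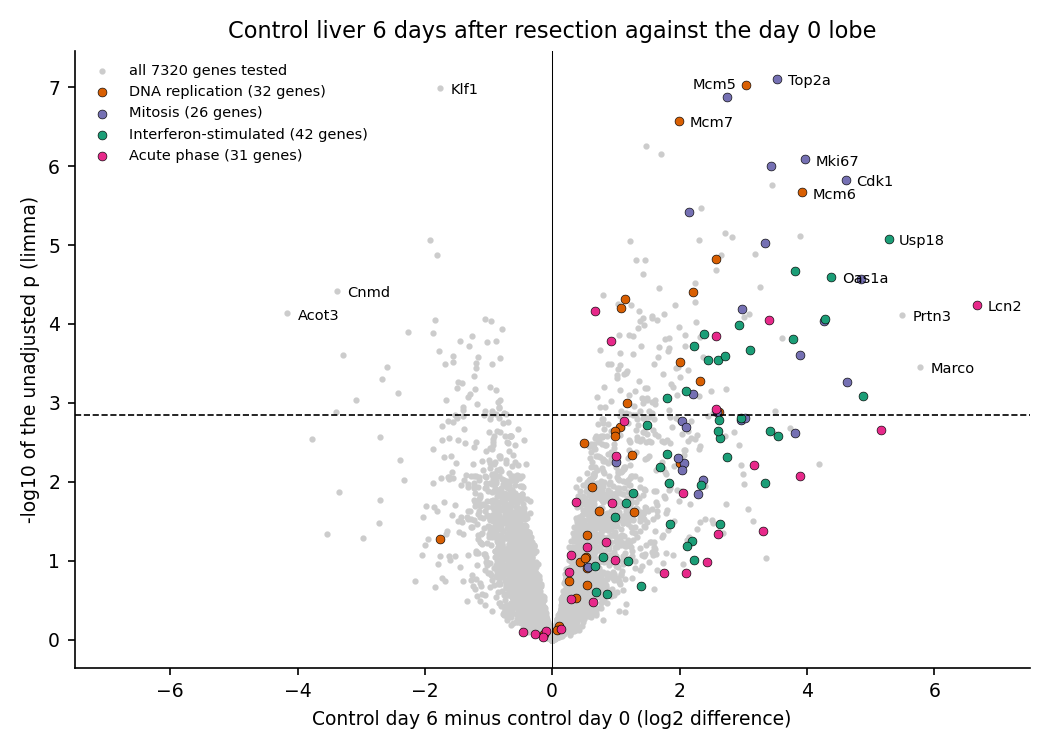
Each point is a gene, with the day 6 minus day 0 difference (log2) on the x axis and −log10 of the unadjusted limma p on the y axis, and the dashed line marks the lowest point among the called genes. The 155 called genes on the right (2.12% of all genes tested) include 14 of 26 mitosis, 11 of 32 replication, 15 of 42 interferon-stimulated and 6 of 31 acute phase genes, and none of these 4 lists has a called gene on the left.

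Genes that copy DNA were higher at day 6. Of 32 tested genes of DNA replication, 11 rose and none fell, against 2.12% higher over all genes. Among all 43 on the array, tested or not, 39 had a higher mean at day 6 with a median difference of 0.74, and in 28 the day 6 livers lay above all day 0 lobes (7.77% of all 12393 genes did, with a median of −0.01). Mcm5, a subunit of the replicative helicase, measured 2.35, 2.36 and 2.55 at day 0 and 6.44, 5.02 and 4.95 at day 6. Every day 6 liver stood clear of every lobe, with mouse 303 highest. The difference was 3.05 ± 0.36 (adjusted p = 0.000242), from weak signal at day 0. The day 6 livers, where Mcm5 is high, were enough by themselves to pass the filter. The control livers of day 2 and the KO livers of days 0 and 6 lay under log2 4. Mcm6, of the same ring, measured 2.53, 3.99 and 2.88 at day 0 and 8.13, 6.68 and 6.37 at day 6, again with mouse 303 highest and no overlap (difference 3.93 ± 0.58, adjusted p = 0.00131). Prim1 encodes the catalytic subunit of the primase that lays RNA primers. Its values were 4.61, 5.5 and 3.64 at day 0 and 6.85, 7.18 and 7.44 at day 6 (difference 2.57 ± 0.44, adjusted p = 0.00407), and its 3 day 6 livers were close together. Cdt1, which loads the helicase at origins, rose by 2.61 ± 0.69 (adjusted p = 0.0481) and lost its call without each 1 of the 6 arrays in turn, with an adjusted p of up to 0.208 (without day 0 mouse 303). Another Cdt1 probe set past the filter differed by 1.09. Pcna, the sliding clamp of the polymerase, measured 9.51, 9.72 and 9.2 at day 0 and 10.31, 10.14 and 9.87 at day 6, which do not overlap, but its adjusted p was 0.156. The list held 6 calls without day 0 mouse 265, 7 without day 0 mouse 303 or day 6 mouse 392, and 9 or 10 without 1 of the others, and it held 1 with the 6 compared arrays alone and 2 with the control arrays alone.

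Genes of mitosis were higher at day 6 as well, and the day 6 livers were far apart in them. Of 53 mitosis genes on the array 26 passed the filter, and 14 of them rose and none fell, while 27 were too weak to be tested. Over all genes tested 2.12% rose. Among all 53, 50 had a higher mean at day 6 with a median difference of 2.03, and in 29 the groups do not overlap. Of all 12393 genes, 40.5% had a higher mean at day 6 and 7.77% were higher without overlap. Of the 26 tested, 17 were at or under log2 4 in every lobe. Cdk1 measured 3.46, 2.64 and 2.65 at day 0 and 5.47, 7.69 and 9.44 at day 6. Among the day 6 livers mouse 393 was highest and mouse 303 lowest, and all lay above the lobes. The difference was 4.62 ± 0.66 (adjusted p = 0.00109), from weak signal at day 0. Cdc20 measured 5.17, 3.6 and 2.75 at day 0 and 6.31, 8.48 and 11.3 at day 6, a difference of 4.86 ± 0.87 (adjusted p = 0.00601), and mouse 393 again stood far above the others. Mki67, the Ki-67 proliferation antigen, measured 3.08, 2.78 and 2.83 at day 0 and 5.81, 6.75 and 8.05 at day 6 (difference 3.97 ± 0.54, adjusted p = 0.000751). Top2a, the topoisomerase that untangles sister chromatids, measured 2.88, 2.22 and 2.11 at day 0 and 4.82, 5.94 and 7.05 at day 6. It had one of the lowest adjusted p of the comparison, 0.000242, with a difference of 3.53 ± 0.41, and no overlap of the groups. Top2a was at weak signal in the lobes, and the day 6 livers were enough by themselves to pass the filter. Its control day 2 values and its KO values of days 0 and 6 lay under log2 4. Stmn1 encodes stathmin, which destabilises microtubules. It measured 5.81, 5.95 and 5.18 at day 0 and 7.82, 8.85 and 10.58 at day 6 (difference 3.44 ± 0.48, adjusted p = 0.000802). The other Stmn1 probe set past the filter differed by 1.0, so the size depends on the probe set. Birc5, the survivin subunit of the chromosomal passenger complex, measured 2.86, 2.84 and 2.87 at day 0 and 4.77, 7.16 and 9.45 at day 6, and Ube2c, an E2 ubiquitin enzyme of mitotic exit, measured 3.07, 2.7 and 2.45 at day 0 and 3.97, 7.91 and 10.22 at day 6. Both sets run in the same order, with mouse 303 lowest and close to its lobe in Ube2c. Their differences of 4.27 ± 0.86 and 4.63 ± 1.11 had adjusted p of 0.0103 and 0.0282, which became 0.0554 and 0.127 without day 6 mouse 392. With the 6 compared arrays alone the adjusted limma p was 0.136 for Birc5 and 0.202 for Ube2c.

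The order of the 3 day 6 livers was shared by the mitosis list. Mouse 393 held the highest day 6 value in all 26 tested genes and mouse 303 the lowest in 24. The mean over the list, each gene centred on the 6 arrays, lay between −1.58 and −1.26 in the lobes and at −0.35, 1.35 and 3.35 in day 6 mice 303, 392 and 393. Replication genes did not run in that order, with list means of 0.8, 0.39 and 0.48 in the same 3 livers and −0.62 to −0.46 in the lobes, and mouse 303 held the highest value in 16 of the 32. Day 6 mouse 303 is also the liver with the larger Gapdh gap of 0.94, and the part of that gap in the order was not tested. Without it 24 of the 26 mitosis genes were called, and without day 6 mouse 392 or day 0 mouse 265 9 were. With the 6 compared arrays alone 0 were called, and 3 with the control arrays alone. At day 2 the median over the list was 0.28 above the day 0 mean in mouse 264, the day 2 liver with a low Gapdh gap (0.07), and 0.32 and 0.17 above it in mice 263 and 265.

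**Figure D2:**
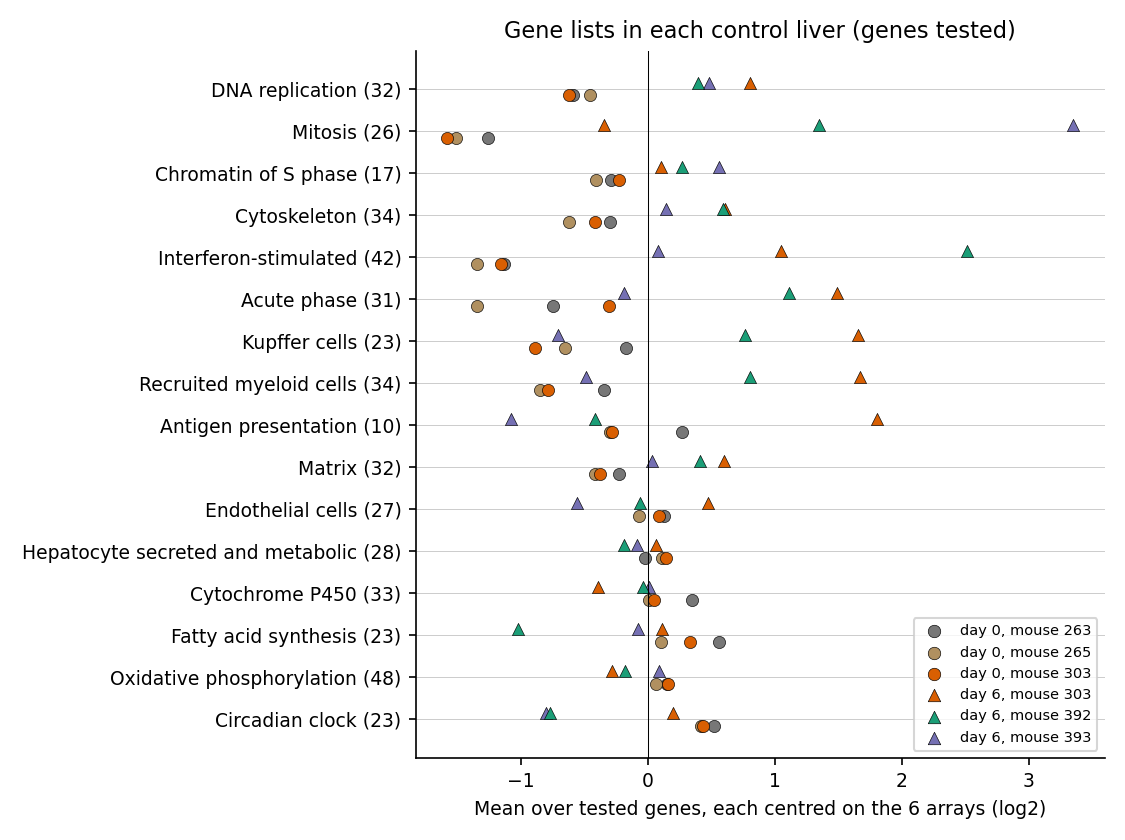
Each symbol is a control liver, circles for the 3 day 0 lobes and triangles for the 3 day 6 livers, coloured by mouse, and the x axis is the mean over the list's tested genes after each gene was centred on the 6 arrays (log2). The mitosis means of the day 6 livers run from −0.35 in mouse 303 to 3.35 in mouse 393, while in the interferon list mouse 392 is highest at 2.51 and in the acute phase list mouse 303 is highest at 1.49.

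Of 22 tested cyclins and regulators of cyclin-dependent kinases, 2 rose and none fell, with a median of 0.1. Over all genes 2.12% rose. Rbl1, the pocket protein p107, measured 2.94, 2.36 and 2.53 at day 0 and 5.17, 4.7 and 4.88 at day 6, a difference of 2.31 ± 0.38 (adjusted p = 0.00309) with little spread on either day. Cdkn2c, the kinase inhibitor p18, rose by 2.24 ± 0.43 (adjusted p = 0.00916). Cyclin D1, Ccnd1, which carries growth signals into the cycle, measured 8.78, 8.49 and 8.42 at day 0 and 10.17, 9.79 and 9.93 at day 6. The groups do not overlap, but the adjusted p was 0.213 with a difference of 1.4 ± 0.57, and a day 2 array (mouse 265, with the Gapdh gap of 9.5) lay at 5.75. The inhibitor p21, Cdkn1a, measured 4.18, 3.89 and 5.01 at day 0 and 5.85, 8.48 and 9.24 at day 6 (adjusted p = 0.0661). Chromatin genes of S phase gave 5 rises among 17 tested (median 0.45) and no fall. They include Hmgb2, a DNA-bending protein (1.67 ± 0.31, adjusted p = 0.00713), Tmpo, a nuclear lamina protein (1.31 ± 0.23, adjusted p = 0.00407), and Ezh2, the histone H3 lysine methyltransferase of Polycomb (1.27 ± 0.27, adjusted p = 0.0129). Hmgb2 lost its call without day 0 mouse 265 (adjusted p = 0.0526) and Ezh2 without day 0 mouse 303 (adjusted p = 0.077), and the list count was 2 without any 1 of the day 0 lobes and 3 without day 6 mouse 392 or 393. Among 21 tested p53 targets, 2 rose (median 0.34), which were Ddit4, an inhibitor of mTORC1 (2.82 ± 0.46, adjusted p = 0.00309), and the exonuclease gene Aen (1.29 ± 0.32, adjusted p = 0.0334, up to 0.128 without day 0 mouse 265). Aen lost its call without each 1 of the 6 arrays in turn. Of 18 tested genes of double-strand break repair, H2ax, the histone variant marked at breaks and also part of the chromatin list, was the one that rose (1.49 ± 0.38, adjusted p = 0.0389, and 0.193 without day 0 mouse 265).

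Immediate early genes and the growth factors of regeneration gave 1 call each at day 6, where 2.12% of all genes tested rose. A single call in lists of this size is near that share. Of 25 tested immediate early genes, Ier5 alone rose (1.75 ± 0.41, adjusted p = 0.0241, and 0.155 without day 6 mouse 392). Of 33 tested growth factors and receptors, the one called gene was Gas6, the ligand of the Axl and Mertk receptors. Gas6 measured 6.74, 6.42 and 6.4 at day 0 and 9.7, 9.16 and 7.42 at day 6, with mouse 393 lowest of the day 6 livers but above every lobe (difference 2.24 ± 0.41, adjusted p = 0.00659). The list median was 0.02.

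Interferon-stimulated genes had a higher list mean in every day 6 liver than in any lobe. Of 42 tested genes 15 rose and none fell, against 2.12% higher over all genes. Among all 44 on the array, 44 had a higher mean at day 6 with a median difference of 2.28, and in 31 the groups do not overlap. Of all 12393 genes, 40.5% had a higher mean at day 6 and 7.77% were higher without overlap. Usp18, which removes the ubiquitin-like protein ISG15 and damps interferon signalling, measured 2.37, 2.35 and 2.34 at day 0 and 5.71, 9.97 and 7.23 at day 6. The lobes sit together at weak signal and mouse 392 stands highest among the day 6 livers. Its difference was 5.28 ± 0.86 (adjusted p = 0.00309). Oas1a measured 3.27, 2.65 and 3.51 at day 0 and 6.41, 9.61 and 6.57 at day 6 (difference 4.39 ± 0.79, adjusted p = 0.0058), with mouse 392 far above the other livers of its day. Ifit1 measured 2.7, 2.68 and 3.02 at day 0 and 5.3, 10.81 and 6.95 at day 6. No day 6 liver overlaps with a lobe, and the difference was 4.89 ± 1.22 (adjusted p = 0.0368, and 0.212 without day 6 mouse 392). Zbp1, a sensor of Z-form nucleic acid, measured 3.7, 2.91 and 3.75 at day 0 and 7.97, 9.55 and 5.7 at day 6 (difference 4.29 ± 0.85, adjusted p = 0.0103, and 0.0767 without day 6 mouse 392). The list mean was −1.35 to −1.13 in the lobes and 1.05, 2.51 and 0.08 in day 6 mice 303, 392 and 393. Mouse 392 held the highest day 6 value in 28 of 42 genes and lay above all lobes in 42 of 42. Without day 6 mouse 392 or without day 0 mouse 265, 3 genes of the list were called, without day 0 mouse 303 7, without day 0 mouse 263 8, and without day 6 mouse 393 26. With the 6 compared arrays alone, or with the control arrays alone, 0 were called. At day 2 the median over the list was −0.04 relative to day 0, so these genes were near the level of the lobes in the day 2 means. Among 10 tested genes of antigen presentation 1 rose, H2-K1, a class I heavy chain (1.07 ± 0.24, adjusted p = 0.0167, and 0.0979 without day 0 mouse 265).

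**Figure D3:**
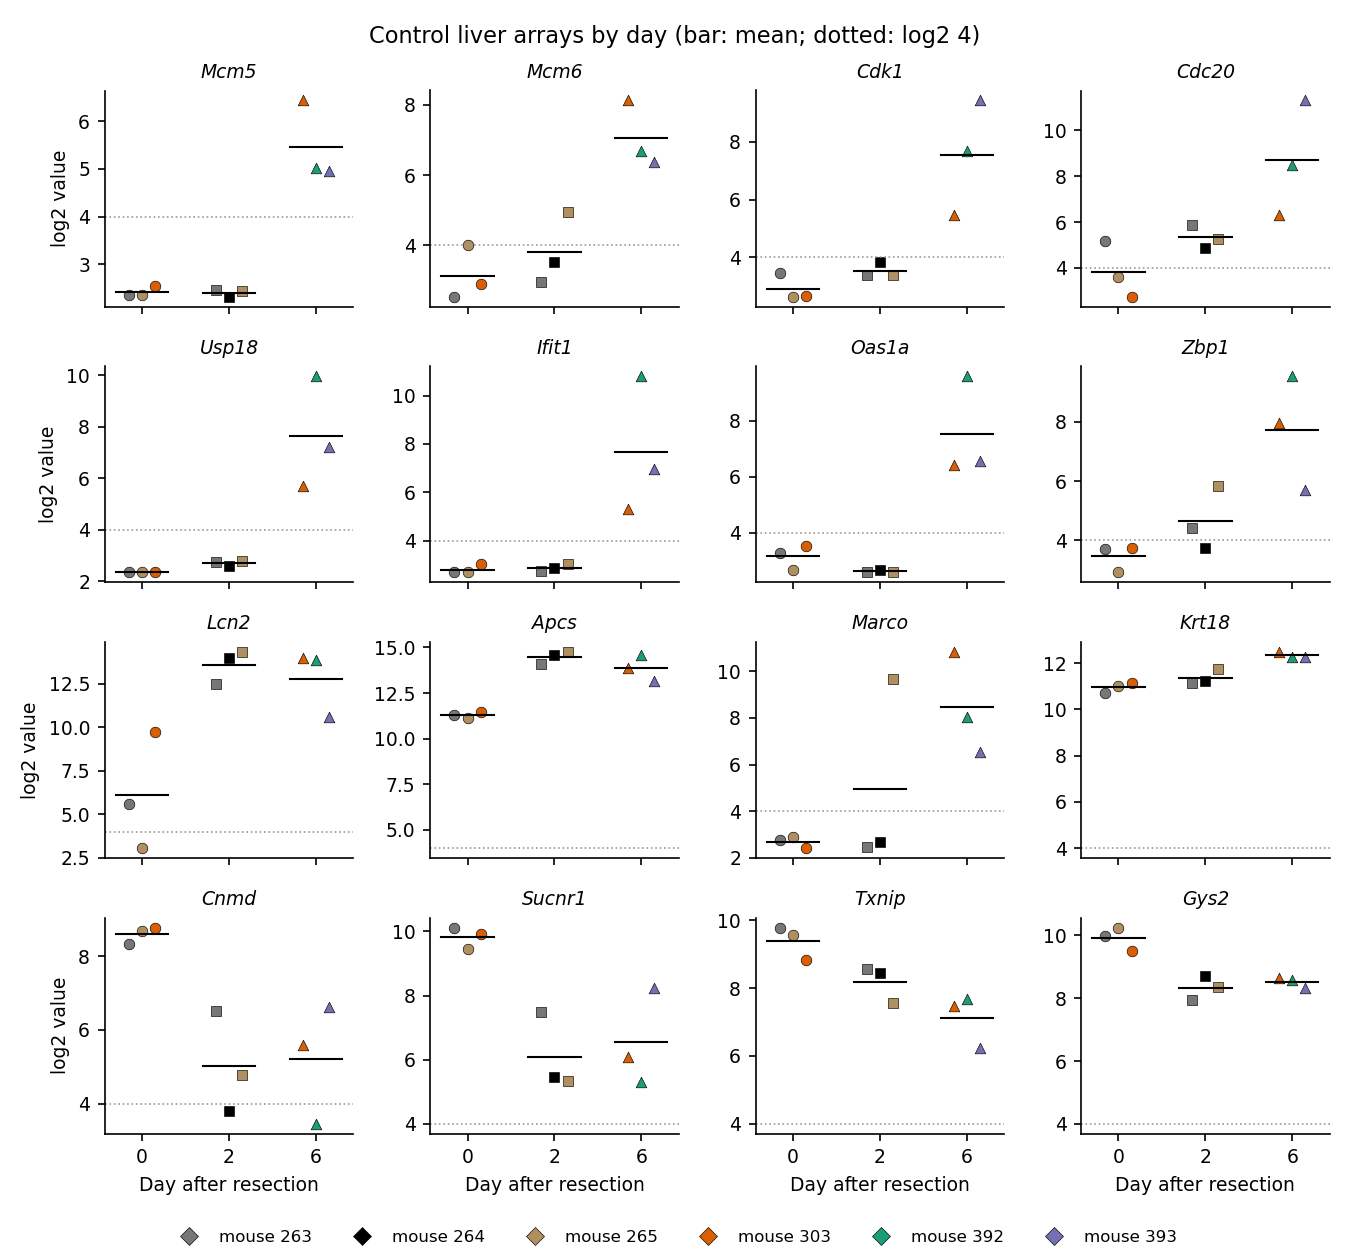
Log2 values (y axis, a scale of its own in each panel) of 16 genes in each control liver at days 0, 2 and 6 (x axis), with points coloured by mouse, a bar for the mean of the 3 livers and a dotted line at log2 4. The interferon genes Usp18, Ifit1 and Oas1a stay under log2 4 on days 0 and 2 and range from 5.3 to 10.81 at day 6, while Lcn2 and Apcs are already high at day 2.

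Acute phase genes remained above the level of the lobes in part of the list. Of 31 tested, 6 rose and none fell, with a median of 0.99, against 2.12% higher over all genes. Lcn2, lipocalin 2, which binds bacterial siderophores and is made by hepatocytes and neutrophils, had the largest difference of the comparison, 6.67 ± 1.28 (adjusted p = 0.00924). It measured 5.61, 3.06 and 9.75 at day 0 and 13.97, 13.87 and 10.6 at day 6. The lobe of mouse 303 was already high and lay just below the lowest day 6 liver, that of mouse 393. Fgl1, a secreted hepatocyte protein, measured 10.39, 9.81 and 10.78 at day 0 and 14.06, 14.13 and 13.03 at day 6 (difference 3.41 ± 0.68, adjusted p = 0.0103). Apcs, serum amyloid P, measured 11.32, 11.13 and 11.44 at day 0 and 13.86, 14.59 and 13.18 at day 6 (difference 2.58 ± 0.54, adjusted p = 0.0129). In both the lobes lie tightly below the day 6 livers, of which mouse 393 is lowest. The others that rose were Lbp, the lipopolysaccharide-binding protein (2.58 ± 0.67, adjusted p = 0.0472), haptoglobin, Hp (0.92 ± 0.19, adjusted p = 0.0136), and hemopexin, Hpx (0.67 ± 0.13, adjusted p = 0.0101). Without day 6 mouse 392 all 6 lost their call, with adjusted p of 0.0604 for Lcn2, 0.0662 for Fgl1, 0.0914 for Apcs, 0.194 for Lbp, 0.0911 for Hp and 0.0596 for Hpx. No gene of the list was called without day 0 mouse 265 either, and 12 were without day 6 mouse 393. The list mean was 1.49, 1.11 and −0.19 in day 6 mice 303, 392 and 393 and −1.35 to −0.31 in the lobes. The day 6 mean lay above the day 2 mean in 4 of the 31 genes, and the day 2 livers stood a median of 0.85, 1.34 and 1.95 above the lobes.

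Markers of myeloid cells differed among the day 6 livers in the same order as the acute phase list. Of 23 tested Kupffer cell markers 1 rose, against 2.12% higher over all genes. This was Marco, a scavenger receptor of macrophages. It measured 2.77, 2.88 and 2.42 at day 0 and 10.83, 8.03 and 6.56 at day 6 (difference 5.78 ± 1.32, adjusted p = 0.0208, and 0.0801 without day 0 mouse 303). The Kupffer list had a median of 0.91, with means of 1.65, 0.76 and −0.71 in day 6 mice 303, 392 and 393 and −0.89 to −0.17 in the lobes. Mouse 303 held the highest day 6 value in 20 of the 23 genes and mouse 393 the lowest in 23, and without day 6 mouse 393 6 of the genes were called. Of 34 tested markers of recruited myeloid cells, Plac8 (3.26 ± 0.6, adjusted p = 0.00713) and S100a6 (2.72 ± 0.67, adjusted p = 0.0324) rose, and the list means were 1.67, 0.8 and −0.49 in those 3 livers and −0.85 to −0.35 in the lobes. Plac8 lost its call without day 6 mouse 392 (adjusted p = 0.0531). S100a6 lost its call without each 1 of the 6 arrays in turn, with an adjusted p of up to 0.118 (without day 0 mouse 265). Of 16 neutrophil markers on the array 6 were tested. Among them Prtn3, proteinase 3 of neutrophil granules, measured 2.41, 2.65 and 2.31 at day 0 and 9.44, 8.13 and 6.3 at day 6 (difference 5.5 ± 1.08, adjusted p = 0.0103, and 0.0531 without day 6 mouse 392), and Lcn2 is also on that list. The neutrophil list means were 3.02, 2.28 and 0.15 at day 6 and −2.63 to −1.23 at day 0. Over all 16 on the array the median difference was 0.08, and 11 had a higher mean at day 6. The part of these cells in the acute phase and interferon values was not tested. Of 30 lymphocyte markers on the array 5 were strong enough to be tested, of which none was called and none had an unadjusted limma p under 0.05.

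Some genes of the cytoskeleton rose. Of 34 tested cytoskeleton genes 5 rose and none fell (median 0.91), against 2.12% higher over all genes. Tubb6, a beta tubulin, measured 3.24, 3.23 and 4.58 at day 0 and 6.02, 7.94 and 8.76 at day 6 (difference 3.89 ± 0.63, adjusted p = 0.00309). The groups lie well apart, and mouse 303 is lowest at day 6. Krt18 and Krt8 form the keratin filament pair of hepatocytes and bile duct cells. Krt18 measured 10.73, 11.01 and 11.12 at day 0 and 12.49, 12.28 and 12.26 at day 6, and Krt8 measured 9.93, 9.78 and 10.35 at day 0 and 11.37, 11.09 and 11.08 at day 6. Both moved by about 1 unit with tight groups (Krt18 1.39 ± 0.3, adjusted p = 0.015; Krt8 1.16 ± 0.27, adjusted p = 0.0237). Krt18 had an adjusted p of 0.0662 without day 6 mouse 392 and Krt8 of 0.13 without day 0 mouse 265, and 1 gene of the list was called without either of those arrays, 2 without day 0 mouse 263 and 11 without day 6 mouse 393. Tmsb10, an actin-binding thymosin, rose by 1.99 ± 0.41 (adjusted p = 0.0113, and 0.0854 without day 6 mouse 392). Its probe sets past the filter differed by 0.5 to 2.41. The secreted protease inhibitor Slpi measured 6.32, 4.3 and 5.0 at day 0 and 8.78, 8.59 and 7.81 at day 6 (difference 3.19 ± 0.54, adjusted p = 0.00389), and its call held whichever array was left out. With the 6 compared arrays alone its adjusted limma p was 0.0695. Annexin A2, Anxa2, rose by 1.97 ± 0.49 (adjusted p = 0.0359, and 0.158 without day 6 mouse 392).

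Of 32 tested matrix genes 1 rose, near the share of 2.12% higher over all genes, with a list median of 0.59. It was Col4a1, a chain of basement membrane collagen (2.3 ± 0.58, adjusted p = 0.0368, and 0.185 without day 0 mouse 265). Col1a1, fibrillar collagen, measured 2.51, 2.6 and 2.17 at day 0 and 4.37, 4.45 and 3.67 at day 6 (adjusted p = 0.435). Its difference was 1.74 here and 0.19 in its other probe set. None of 18 tested markers of stellate cells and myofibroblasts and none of 27 endothelial markers was called, with medians of 0.18 and −0.24 and with 4 and 3 genes at an unadjusted limma p under 0.05. Over all genes tested 16.3% reached that p. The endothelial list mean was 0.47 in day 6 mouse 303 and −0.56 in day 6 mouse 393, and −0.07 to 0.13 in the lobes. Of the 17 tested markers of bile duct cells and progenitors, Krt8, Krt18 and Lcn2, named above, were the ones called.

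Fewer genes fell, and 9 of the 54 were members of a list. Acot3, a peroxisomal acyl-CoA thioesterase of fatty acid breakdown, measured 9.53, 7.44 and 5.24 at day 0 and 2.96, 3.52 and 3.24 at day 6. The lobes differ widely among themselves, and all day 6 livers are at weak signal below them. The difference of −4.16 ± 0.82 (adjusted p = 0.0103) was the largest fall called, with an adjusted p of 0.0506 without day 0 mouse 265. Cnmd, chondromodulin, measured 8.32, 8.69 and 8.78 at day 0 and 5.58, 3.45 and 6.63 at day 6 (difference −3.38 ± 0.63, adjusted p = 0.00749), and its call held whichever array was left out. With the 6 compared arrays alone its adjusted limma p was 0.11. Sucnr1, the receptor for succinate, measured 10.12, 9.44 and 9.93 at day 0 and 6.1, 5.3 and 8.25 at day 6 (difference −3.28 ± 0.72, adjusted p = 0.0172, and 0.122 without day 6 mouse 392). In both genes mouse 393 kept the highest day 6 value and mouse 392 the lowest. Txnip, an inhibitor of thioredoxin that responds to glucose, measured 9.78, 9.56 and 8.83 at day 0 and 7.48, 7.69 and 6.22 at day 6 (difference −2.26 ± 0.47, adjusted p = 0.0125, and 0.063 without day 0 mouse 265). Rgs16, a brake on G protein signalling, fell by 3.4 ± 0.9 on the log2 scale (adjusted p = 0.0487, and 0.193 without day 0 mouse 263). Map2k6, a kinase upstream of p38, fell by 2.68 ± 0.64 (adjusted p = 0.0268, and 0.155 without day 6 mouse 392). Nox4, an NADPH oxidase, fell by 2.42 ± 0.6 (adjusted p = 0.0354, and 0.167 without day 0 mouse 265).

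Lists of hepatocyte functions held few calls. None of 28 tested genes for secreted and metabolic hepatocyte products was called (median −0.12), and Alb differed by −0.03 ± 0.14. No gene was called among 34 genes of complement and coagulation, 32 of bile acid synthesis and transport, 20 of cholesterol synthesis, 23 of fatty acid synthesis, 21 of lipid uptake and 43 of the urea cycle and amino acid breakdown, with list medians of 0.08, −0.24, −0.02, −0.52, 0.03 and −0.3. At an unadjusted limma p under 0.05, which 16.3% of all genes reached, these lists held 4, 5, 4, 6, 3 and 5 genes, and the list of hepatocyte products held 1. Of 33 tested cytochromes P450, Cyp2d10 and Cyp2d22 fell (list median −0.37), against 0.738% lower over all genes. The day 6 livers lay below all lobes in 12 of 33 cytochromes P450, 12 of 30 phase II enzymes and 11 of 43 genes of the urea cycle and amino acid breakdown, against 11.2% of all genes. Cyp2d10 measured 13.86, 13.86 and 13.69 at day 0 and 13.01, 13.15 and 12.88 at day 6, a small and regular step (difference −0.79 ± 0.16, adjusted p = 0.0119, and 0.063 without day 0 mouse 265). The step in Cyp2d22 was −0.72 ± 0.19 (adjusted p = 0.0491, and 0.212 without day 6 mouse 392). Related Cyp2d copies could share probes with Cyp2d10 or with Cyp2d22. Neither was called without day 0 mouse 263 or 265. Ugt2b38, a glucuronosyltransferase, was the one of 30 phase II enzymes that fell (−3.08 ± 0.78, adjusted p = 0.0391, and 0.185 without day 0 mouse 265). Gys2, the liver glycogen synthase, was the one of 32 glucose and glycogen genes that fell. It measured 9.99, 10.25 and 9.49 at day 0 and 8.63, 8.59 and 8.32 at day 6 (difference −1.4 ± 0.37, adjusted p = 0.0474, and 0.198 without day 0 mouse 265), with day 6 livers close together below the lobes. Gys2 lost its call without each 1 of the 6 arrays in turn. Herpud1, of the endoplasmic reticulum stress response, fell by 1.23 ± 0.29 (adjusted p = 0.0251, and 0.133 without day 6 mouse 392). Of 48 tested subunits of oxidative phosphorylation none was called, and the day 6 mean was above the day 0 mean in 2 of them (list median −0.24), while 5 had an unadjusted p under 0.05 and 13 lay below all lobes on day 6.

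Further calls came from lists of other functions. Over all genes 2.12% rose, and a single call in a list of about 30 genes is near that share. Stat5a, a transcription factor of growth hormone signalling, rose by 0.88 ± 0.2 (adjusted p = 0.0197, and 0.131 without day 6 mouse 392) and was the one of 29 hepatocyte transcription factors called. Srxn1, a sulfiredoxin under control of NRF2, rose by 1.86 ± 0.45 (adjusted p = 0.0298, and 0.182 without day 6 mouse 392). Nop56, of ribosome assembly, rose by 1.21 ± 0.3 (adjusted p = 0.0364, and 0.212 without day 6 mouse 392), while the 37 tested genes of its list had a median of 0.17. Among 26 tested genes of the zone around the central vein, the amino acid carrier Slc1a4 (1.82 ± 0.4, adjusted p = 0.0163, and 0.0854 without day 6 mouse 392) and the aryl hydrocarbon receptor Ahr (0.92 ± 0.23, adjusted p = 0.0395, and 0.183 without day 0 mouse 265) rose. Another Slc1a4 probe set past the filter differed by 0.66. Of 17 tested oncofetal and tumour-associated genes 4 rose (median 1.37), namely Lcn2, Birc5, Slpi and Anxa2, and of 19 tested genes of iron handling 3 rose (median 0.24), namely Lcn2, Hp and Hpx, all named above. None of 24 tested genes of the zone around the portal vein was called, and 3 had an unadjusted limma p under 0.05, which 16.3% of all genes reached. No list held calls in both directions: of 49 lists, 24 had a higher call, 9 a lower call and 16 none, and the medians of those 16 lay between −0.57 and 0.39.

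Of 13 markers of red cell precursors on the array 5 were tested, and 2 fell, against 0.738% lower over all genes. Over all 13 the median difference was −0.03, and 3 had a higher mean at day 6. The day 6 livers lay below all lobes in 3 of the 13 and above them in 1. Of the 5 tested, 2 had a higher mean at day 6. Klf1, the erythroid Krüppel-like factor, measured 4.58, 4.75 and 5.36 at day 0 and 3.34, 3.04 and 3.04 at day 6. Each lobe was above each day 6 liver, and the fall was called whichever array was left out (difference −1.76 ± 0.21, adjusted p = 0.000242). With the 6 compared arrays alone the adjusted limma p of Klf1 was 0.0528. All day 6 livers are at weak signal, so the size of the fall is uncertain. The control livers of day 2 and the KO livers of days 0 and 6 also lay under log2 4. The 3 control lobes, where Klf1 is high, were enough by themselves to pass the filter. Car1, carbonic anhydrase 1 of red cells, measured 6.02, 6.59 and 5.88 at day 0 and 4.12, 3.72 and 5.34 at day 6 (difference −1.77 ± 0.39, adjusted p = 0.0163, and 0.116 without day 6 mouse 392). The list mean was −0.19 to 0.48 in the lobes and −0.43, −0.26 and −0.04 in day 6 mice 303, 392 and 393, which overlap.

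The clock list had the lowest median of the lists with a call, −0.91 over 23 tested genes. A single member was called, Cys1 (cystin 1), which is not itself a part of the clock. Cys1 fell by 1.42 ± 0.34 (adjusted p = 0.0284, and 0.158 without day 6 mouse 392). Its lobes measured 4.08 to 4.55 and all day 6 livers were at weak signal, so the size of that fall is uncertain. The members with the largest differences were chosen after their values were seen. Dbp, a transcription factor driven by the clock, had a day 0 mean of 11.58 and a day 6 mean of 8.05 with an SD of 2.53, and in mouse 303 its day 6 value was 0.27 above that mouse's own lobe. Usp2, a deubiquitinase with a daily rhythm, differed by −3.77 ± 1.09 (adjusted p = 0.0693). The list mean was 0.42 to 0.52 in the lobes, 0.2 in day 6 mouse 303 and −0.77 and −0.8 in mice 392 and 393. Without day 6 mouse 303, 7 genes of the list were called lower and 1 higher. The labels used here give no hour of sampling.

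The 3 day 6 livers also differed in genes that passed no test. The 10 genes with the largest SD among them are given as a description. Ccnb2, a cyclin of mitosis, measured 2.32, 6.39 and 8.84 in mice 303, 392 and 393, in the order of the mitosis list. Cd74 and H2-Ab1, of antigen presentation by class II molecules, measured 11.66, 6.62 and 5.67 and 10.55, 4.98 and 4.77, so mouse 303 lay above every lobe and both other livers below every lobe (lobes 8.74 to 9.44 and 7.59 to 8.77). Cd207 measured 8.34, 2.47 and 2.46, the chemokine Cxcl13 10.94, 4.99 and 2.63, and the transcript BC023105 10.1, 7.14 and 2.37. In these 5 genes, from Cd74 to BC023105, mouse 303 is the highest of its day. In mouse 392 alone, Scd1, the desaturase that makes monounsaturated fatty acids, was low at 5.89 (13.66 and 12.2 in mice 303 and 393), and Cyp2b9, Cyp4a14 and Ly6d were high at 10.31, 9.21 and 11, against at most 4.99 in the other day 6 livers.

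**Figure D4:**
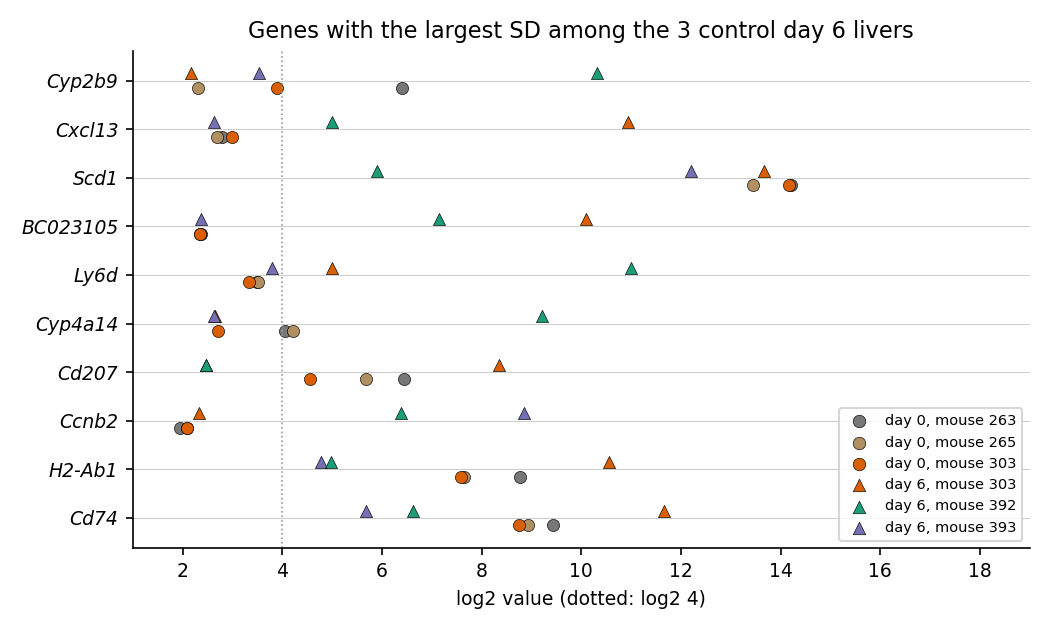
Log2 values (x axis) of the 10 genes with the largest SD among the 3 day 6 control livers, circles for the day 0 lobes and triangles for the day 6 livers, coloured by mouse, with a dotted line at log2 4. Mouse 392 stands apart in Cyp2b9 (10.31), Ly6d (11) and Scd1 (5.89), and mouse 303 in Cd74 (11.66) and H2-Ab1 (10.55).

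The response of control livers was set against that of KO livers by testing the difference between the 2 day 6 minus day 0 differences. Of 7320 genes, 12 passed (0.164%), 11 (0.15%) with a smaller or opposite response in KO and 1 (0.0137%), Klf1, with a smaller fall. 10 of the 12 had risen in control livers. The control difference enters both tests, so that overlap is partly built in. 9 of the 12 are on the replication or mitosis list, namely Mcm5, Mcm6, Mcm7, Prim1 and Rpa2 of replication and Mki67, Top2a, Smc2 and Stmn1 of mitosis. These are 5 of 32 tested replication genes and 4 of 26 tested mitosis genes, against 0.164% of all genes. The other 3 were Cdca5, which holds sister chromatids together, the histone chaperone Dnajc9 and Klf1. For Cdca5, as for Mcm5 and Top2a, the control day 6 livers were enough by themselves to pass the filter, and the KO livers of both days lay under log2 4. Mcm6 rose by 3.93 in control livers and differed by −0.49 in KO livers, a difference between responses of −4.42 ± 0.76 (adjusted p = 0.0153). Its mean was already 5.61 ± 0.67 (SD, n = 6) in the KO lobes and 5.11 ± 0.23 (SD, n = 3) at day 6, against 3.13 ± 0.76 and 7.06 ± 0.94 (SD, n = 3) in control livers. Mki67 had the same mean of 5.03 at both KO days (difference between responses −3.97 ± 0.72, adjusted p = 0.0239), while control livers went from 2.9 to 6.87. The response of Mcm5 differed by −3.25 ± 0.47 (adjusted p = 0.00481) and that of Top2a by −3.4 ± 0.54 (adjusted p = 0.00923). Both start higher in the KO lobes, at 3.23 and 3.2, than in the control lobes, at 2.42 and 2.4, but stay at weak signal. Rpa2, of the single-strand binding complex, was called here (−2.11 ± 0.39, adjusted p = 0.0262) although its rise in control livers was not (1.07 ± 0.3, adjusted p = 0.0591). Klf1 fell by 1.76 in control livers and differed by −0.12 in KO livers, whose lobes were already at 3.01 (difference 1.64 ± 0.28, adjusted p = 0.0127). Its KO values of both days (2.62 to 3.36) and its control day 6 values (3.04 to 3.34) are all weak signal. KO livers thus had little signal to lose, and the size of this response difference is uncertain. With mouse as a fixed block 0 genes passed (450 at an unadjusted p under 0.05). The count of 12 became 4 without day 0 control mouse 303 and 41 without day 6 control mouse 303.

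Interferon-stimulated genes were not separated by that test. The median over the list was 1.96 in KO livers and 2.35 in control livers, and 0 of 42 genes passed, with 0 at an unadjusted limma p under 0.05 as well. Usp18 was 5.28 higher at day 6 in control livers and 3.56 higher in KO livers, and the difference of −1.72 ± 1.14 had an adjusted p of 1. For Oas1a the responses were 4.39 and 4.57 (difference 0.18 ± 1.04), and for Ifit1 they were 4.89 and 4.94 (difference 0.05 ± 1.62), with standard errors of 1 or more on the log2 scale. Among all genes that rose in control livers, 111 of 155 had a KO difference above 0, with a median of 0.22, against 40.9% of all genes tested. Of the 54 that fell, 51 had a KO difference below 0, with a median of −0.44.

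**Figure D5:**
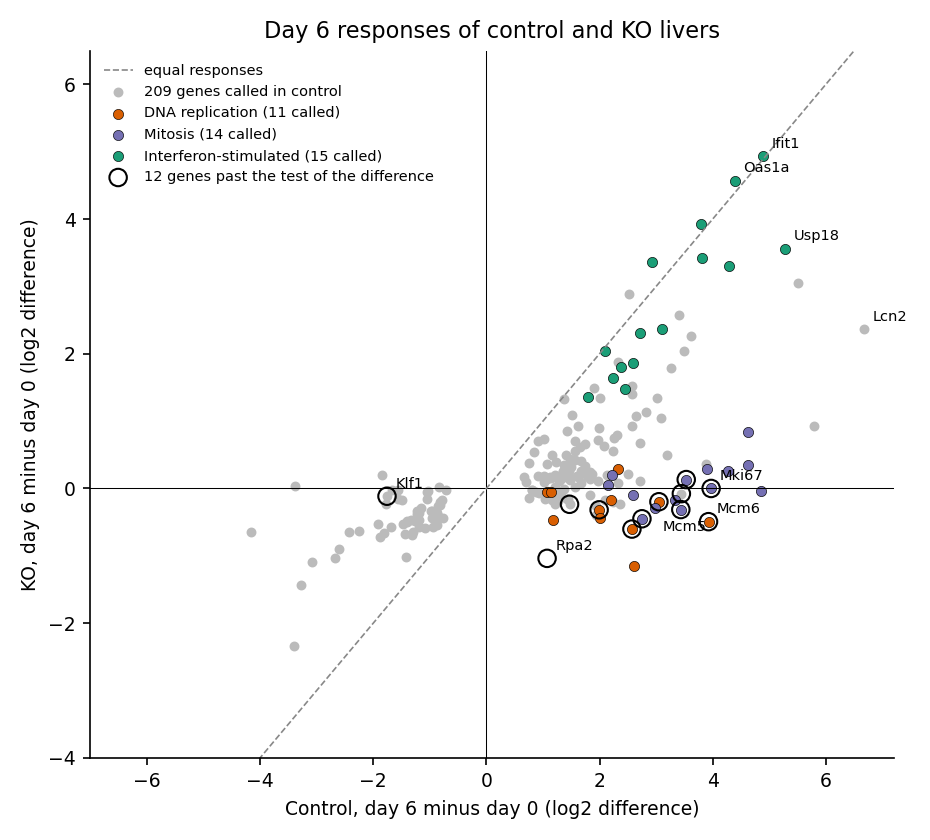
For each of the 209 genes called in control livers, the control day 6 minus day 0 difference (x axis, log2) is set against the KO difference (y axis, log2), with the dashed line where both are equal and open circles around the 12 genes whose 2 differences passed the test. Called replication and mitosis genes lie between −1.16 (Cdt1) and 0.83 (Ube2c) on the KO axis, the interferon genes Ifit1 and Oas1a lie close to the dashed line, and the empty circle is Rpa2, which was not called in control livers.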

How the data were processed

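Total RNA of mouse liver was labelled by a 3′ in vitro transcription protocol, per the labels' protocols, and measured on Affymetrix arrays. The authors deposited log2 values made with GCRMA, per the submitters' processing notes, whose version is not given there. Of 22690 probe sets, 64 controls, 691 with several gene symbols and 1555 with none were set aside. The remaining 20380 carried 12393 genes, of which 4956 had several probe sets and were read from the one with the highest mean. Genes above log2 4 on at least 3 of the 21 arrays were tested (7320). limma 3.58.1 in R 4.3.3 fitted all 21 arrays in 1 model of 6 groups (15 residual degrees of freedom) with empirical Bayes moderation, two-sided, after the script was tested on simulated data. The number of arrays limits the precision. By number only mouse 303 is shared by the compared groups, so the main model has no block. Mouse as a random block (correlation 0.108) and, added after seeing the data, as a fixed block were alternatives. Others were filters, probe set averaging, normalization, array weights, the arrays in the fit and leaving out arrays. Members and lists were chosen with earlier results of these data known. Named genes were the 12 largest rises and falls, up to 4 called genes of each list (or the one with the smallest p), the 5 largest response differences in each direction, the 10 with the largest SD among day 6 livers, and proliferation and liver markers fixed by name. Dbp and Usp2, Mcm7, Smc2, Dnajc9 and Rpa2 fall outside this rule and were named after their values were seen. Promoter sequences are from RefSeq (GRCm38.p6).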

Additional observations from a re-analysis of the deposited data

Results flagged for a closer look

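In 12 genes the day 6 response differed between KO and control livers by the limma test of that difference. The log2 differences, KO minus control, were −3.25 for Mcm5, −4.42 for Mcm6, −2.31 for Mcm7, −3.18 for Prim1 and −2.11 for Rpa2, all of DNA replication. They were −3.97 for Mki67, −3.4 for Top2a, −3.2 for Smc2 and −3.75 for Stmn1, of mitosis. Cdca5, of sister chromatid cohesion, differed by −3.52, the histone chaperone gene Dnajc9 by −1.7, and the erythroid factor Klf1 by 1.64. In Klf1 the control day 6 livers and the KO livers of both days were at weak signal, so that size is uncertain.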

How the results depend on the processing

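The count of 209 called genes moved with the arrays that entered the model, with their weights and with the block. It was 19 with the 6 compared arrays alone, 22 with the control arrays alone and 571 with array weights. The 6 compared arrays and the control arrays alone leave fewer residual degrees of freedom and also take the KO groups out of the pooled spread. The part of each in the lower counts was not tested. These fits held 1277 and 819 genes at an unadjusted limma p under 0.05, against 1195 in the main model. Leaving out 1 of the compared arrays gave 54 to 298. Leaving out the control day 2 group gave 332, and leaving out both arrays of mouse 303 gave 123, settings chosen after seeing the data. It stayed between 170 and 296 under the other filters, scalings and moderation and without the arrays with a high Gapdh gap. With mouse as a random replicate block, 241 were called, which include the 209. With mouse as a fixed block, chosen after seeing the data, the pairing leaves the comparison to the 2 samples of mouse 303, and 0 genes were called in limma (677 at an unadjusted p under 0.05). The 12 genes whose response differed from KO became 5 with a filter above log2 6, 50 with array weights, and 4 to 41 with 1 array left out, and the random block gave 15 and the fixed block 0 (450 at an unadjusted p under 0.05). With 1 array left out, the difference of Alb, near 0, ranged from −0.1 to 0.09 and turned to 0.0 without day 0 mouse 263, and it was 0.03 with array weights and 0.05 without both arrays of mouse 303. On leaving out arrays, that of Cd74 ranged from −2.89 to 0.11 (without day 6 mouse 393), of Cyp2b9 from −1.34 (without day 6 mouse 392) to 2.72 and of Cyp4a14 from −1.03 (without day 6 mouse 392) to 2.27. In the fixed block, Cd207 turned to 3.79, Cd74 to 2.92, H2-Ab1 to 2.96, Cyp2b9 to −1.73 and Cyp4a14 to −0.07. Those causes were not tested. 36 called genes had all day 0 lobes, and 8 all day 6 livers, at or under log2 4, so the sizes of their differences are uncertain.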

Other observations

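Of the 155 genes that rose, 140 had a day 2 mean above the day 0 mean, and in 34 the day 2 mean was also above the day 6 mean. Of the 54 that fell, 50 had a day 2 mean below the day 0 mean. Over all genes tested these shares were 55.6% above and 44.1% below. Both comparisons use the same 3 lobes, which also chose the genes. The genes that rose shared no single order among the day 6 livers, since the highest value was in mouse 392 for 61, in mouse 303 for 52 and in mouse 393 for 42. The day 2 means include the 2 arrays with a high Gapdh gap, whose part in these counts was not tested.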
